A study of Mus musculus with 6 samples.

Results

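The genes described here are those of astrocytes, the star-shaped glial cells of the brain, in the arcuate nucleus (ARC) of female mice with and without a conditional deletion of the estrogen receptor gene *Esr1*. The set holds 34 of the 24015 gene symbols in the count tables, taken by name from a list of 25 homeostatic genes, which mark resting astrocytes and their everyday work, and 9 reactive genes, which astrocytes are known to turn on after injury or inflammation. Of the 15236 genes with enough counts to be tested, 33 belonged to the set, and *Lcn2* did not reach that level. Astrocytes take up glutamate and potassium released by neurons, couple to each other through gap junctions and wrap blood vessels with end-feet rich in water channels. In the ARC they lie among the neurons that govern feeding and reproduction, and the extent to which their processes cover these neurons is known to vary with estradiol. Reactive astrocytes enlarge, build more intermediate filament and secrete protease inhibitors, complement and matrix proteins, partly under the control of cytokine receptors that act through STAT3.

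RNA-sequencing was performed on the ARC, dissected by hand from a coronal slice of hypothalamus, of 3 control and 3 mutant adult females of a mixed background (CD-1, 129P2, C57BL/6 in the labels; the paper names CD-1 and 129P2 for this line). Control females were *Esr1* fl/fl, with floxed alleles of the gene for estrogen receptor alpha and no Cre in the genotype label. Mutants (*Esr1* fl/fl;*Nkx2-1-Cre*, written *Esr1* Nkx2-1Cre) carried the same floxed alleles and a Cre driven by *Nkx2-1*, a transcription factor of the embryonic ventral hypothalamus, and which astrocytes carried the deletion was not measured. The comparison asks whether astrocyte genes of the ARC differ between the genotypes, and how the homeostatic and reactive classes vary among samples. The labels number the replicates but do not say what the numbers mark or whether each sample is a single animal, so p-values measure the spread between these samples.

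Total counts per sample were 14747944, 17877137 and 14046798 in control replicates 1, 2 and 3 and 11792440, 15741681 and 15166356 in mutant replicates 1, 2 and 3. Levels are CPM (counts per 1e6 counted reads) after TMM scaling, and 3 counts, taken as the floor of detection, corresponded to 0.175 to 0.248 CPM, a limit that covers counting error only. *Esr1*, given as a check of the labels, measured 64.5, 57.5 and 48.5 CPM in controls and 11.8, 9.55 and 7.06 CPM in mutants, with the log2 fold change at -2.59 (SE 0.18, mutant against control; edgeR's quasi-likelihood test, Benjamini-Hochberg adjusted p = 0.000884).

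Control replicate 2 stood apart from the other samples in genes of other tissues and cells. *Cga*, the glycoprotein hormone subunit of the pars tuberalis that lies against the ARC, stood at 582, 3.26 and 406 CPM in the controls and 468, 396 and 372 CPM in the mutants, so its RNA was nearly absent from control replicate 2. Summed over the 10 tanycyte markers, of which *Dio2* was the most abundant, the level was 1548, 901 and 1225 CPM in the controls and 1825, 1495 and 1506 CPM in the mutants, lowest in the same sample. *Dcn*, the most abundant of the meningeal fibroblast markers, was also lowest there, at 33.4 CPM against 88.9 to 202 CPM elsewhere. That list did not move as a whole, since *Igf2* and *Pdgfra* were higher there than in control replicates 1 and 3. They stood at 91.8 against 55.4 and 66.7 CPM and at 106 against 98.4 and 79.1 CPM. The summed list was 267 CPM there and 279 CPM in mutant replicate 1. Mutant replicate 1 stood apart in *Iigp1*, an interferon-induced GTPase gene singled out after its values were seen, with 2.08, 0.814 and 1.79 CPM in the controls and 29.9, 2.89 and 2.93 CPM in the mutants.

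Transcripts of astrocytes were detected in every dissection. The 34 genes took 0.941, 1.41 and 1.09% of all counts in control replicates 1, 2 and 3, and 1.04, 1.13 and 1.37% in the mutants. Per kilobase of exon, which allows levels to be compared between genes, the matricellular protein gene *Sparcl1* was highest at 518 ± 106 CPM per kb (SD, n = 6 samples). *Ndrg2*, a cytoplasmic protein widely used as an astrocyte marker, followed at 355 ± 64.8 CPM per kb, and the glutamate transporter gene *Slc1a2* at 274 ± 68.5 CPM per kb. The ranges of these neighbours overlapped between samples, since *Ndrg2* in control replicate 2 (466 CPM per kb) was above *Sparcl1* in control replicate 1 (407 CPM per kb). Within each of the 6 samples, however, *Sparcl1* was above *Ndrg2* and *Ndrg2* above *Slc1a2*. *Atp1b2* (212 ± 39.5), *Glul* (172 ± 27.3), *Apoe* (169 ± 20.6) and *Clu* (126 ± 15.3) came next in CPM per kb.

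*Serpina3n* was the most abundant reactive gene per length and stood in place 8 of the 34, at 101 ± 15.7 CPM per kb, between *Clu* and *Aldoc* (92.3 ± 12.8 CPM per kb). The other 8 reactive genes lay between places 23 and 34, from *Cd44* at 8.09 ± 1.70 to *Lcn2* at 0.111 ± 0.0520 CPM per kb. Among homeostatic genes, *Gfap* came only in place 20 (23.4 ± 9.21 CPM per kb), and *Aldh1l1*, *Slc7a10* and *Cbs* were lowest, at 2.24 ± 0.560, 2.45 ± 0.596 and 2.67 ± 0.995 CPM per kb. These last 3 did not differ beyond their spread over the samples. Read sharing limits a few of these levels. The counting is not stated to use strand, and exons of *Lrp3* on the opposite strand cover 29.5% of the exon length of *Slc7a10*, while those of *Gm15756* cover 11.1% of *Aldh1l1*.

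No astrocyte gene passed the test between genotypes. Of the 33 genes tested, 0 had an adjusted p under 0.05 by edgeR's quasi-likelihood test with Benjamini-Hochberg adjustment over all genes, against 18 of all 15236 genes (0.118%), and DESeq2 (which called 1.31% of all genes) and limma voom also called 0. At an unadjusted p under 0.05, 3 of the 33 were higher in mutants and 0 lower, where the shares over all genes were 4.84% and 4.01%. Groups did not overlap for 3 of the 33, all higher in mutants, and for 0 lower, against 7.88% of all genes higher and 7.88% lower; 3 samples against 3 allow no exact permutation p under 0.1. The genes past the unadjusted threshold were *Cp*, *Thbs4* and *Cd44*, and those without overlap were *Cp*, *Thbs4* and *Osmr*, all of the reactive class. *Thbs4* passed the count filter only through the mutants, so its place in both counts is not evidence of a difference. With at least 10 counts in every sample, which removed it, 2 of 32 did not overlap (15.6% of all genes in either direction). In bulk tissue such as this, fewer cells of a type and less RNA per cell cannot be told apart.

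With all samples, homeostatic genes showed 13 positive and 12 negative log2 fold changes with a median of 0.015, close to the median of all genes tested (0.0036). For 22 of these 25 genes (88.0%) the log2 fold change was smaller than the SD among the 3 controls, which held for 61.5% of all genes. The median of that SD was 0.35 in log2 units for homeostatic genes, 0.33 for reactive genes and 0.17 over all genes tested. Taken as a class, samples of a genotype spread more for homeostatic genes, since the SD of their median deviation, pooled over both genotypes, was 0.28 against 0.11 log2 units for reactive genes. Among the 8 reactive genes tested, 7 had positive log2 fold changes, the median of the 8 was 0.32, and for 2 the fold change was smaller than the SD among controls. The 8 include *Thbs4*, which passed the count filter only through the mutants. With at least 10 counts in every sample, which removed it, the median over 7 genes was 0.27.

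The spread of homeostatic genes followed the same samples. Control replicate 2 was the highest control for 24 of the 25 (96.0%, against 35.0% of all genes), and *Sox9*, where it was lowest, was the exception. Its level was 1.47 times the mean of the other controls in the median homeostatic gene, and ranged from 0.885 times for *Sox9* to 2.68 times for *Gfap*, where the median over all genes was 0.997 times. Among mutants, replicate 3 was highest for 21 of the 25 (84.0%, against 32.3% of all genes) and replicate 1 was lowest for 21 (37.3% of all genes). As a mean log2 deviation from each gene's average over the 6 samples, homeostatic genes were at -0.26, 0.36 and -0.17 in control replicates 1, 2 and 3, and at -0.18, -0.0082 and 0.26 in mutant replicates 1, 2 and 3. Both extremes among the controls lay outside the range of the mutants.

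Reactive genes followed another order of samples. Their mean log2 deviation was -0.28, -0.11 and -0.17 in the controls and 0.41, 0.10 and 0.055 in the mutants, so each mutant lay above each control and mutant replicate 1, low for homeostatic genes, was highest. *Thbs4*, with few counts, carried part of this mean, with deviations of -1.26, -0.14 and -0.84 in the controls and 1.04, 0.56 and 0.64 in the mutants. It passed the count filter only through the mutants and widened the separation of these means, which is not read as a difference between genotypes. Mutant replicate 3 was above the gene mean for 5 of the 8 genes, and control replicate 1 for 4. The median deviation over the 8 genes was -0.088, -0.090 and -0.18 in the controls and 0.32, 0.13 and 0.036 in the mutants, which left mutant replicate 3 closer to the controls. Mutant replicate 1 was the highest mutant for 6 of the 8 reactive genes (75.0%, against 37.2% of all genes) and the highest of all samples for 5. The reactive minus homeostatic difference was -0.018, -0.48 and -0.0021 log2 units in the controls and 0.59, 0.11 and -0.21 in the mutants, with mutant replicate 3 below control replicates 1 and 3.

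**Figure D1:**
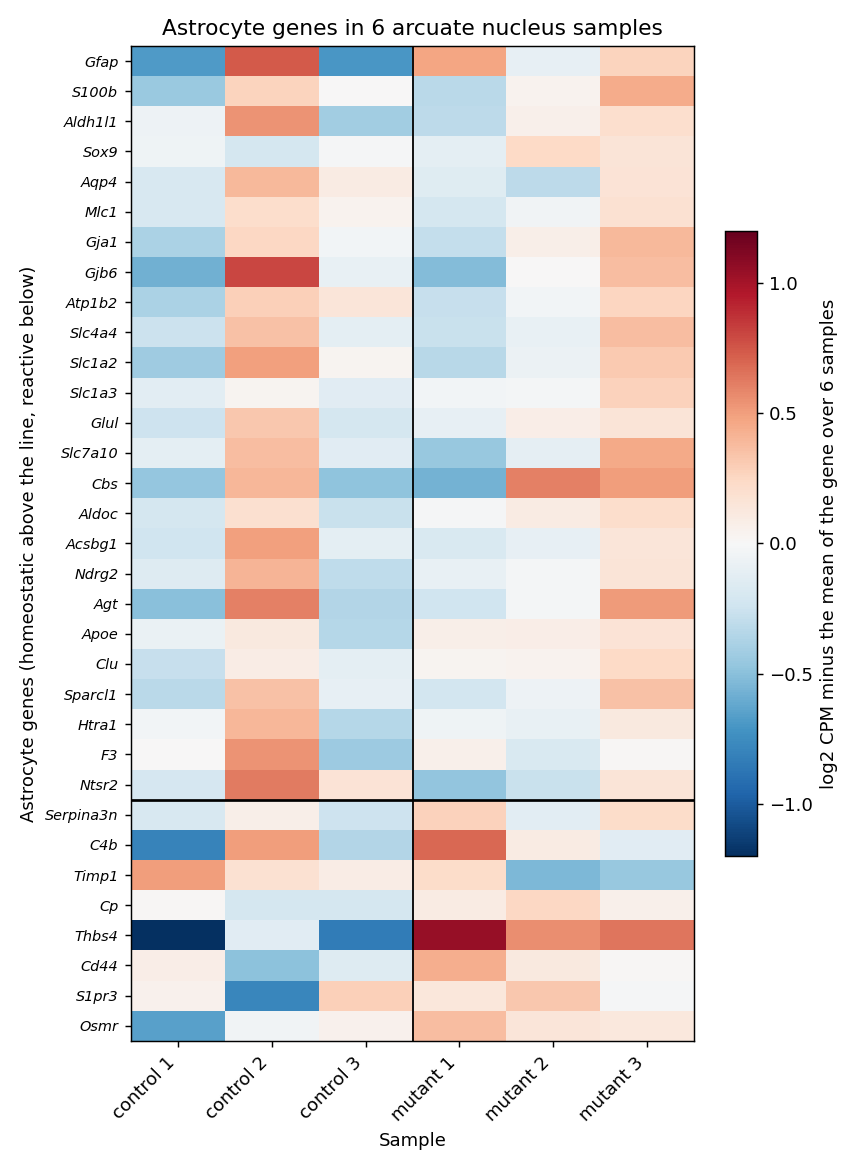
Each row is an astrocyte gene tested (25 homeostatic above the line, 8 reactive below) and each column a sample; the color gives log2 CPM minus that gene's mean over the 6 samples. Control replicate 2 is above the mean for 24 of the 25 homeostatic genes and mutant replicate 3 for all 25, whereas mutant replicate 1 is above the mean for all 8 reactive genes.

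**Figure D2:**
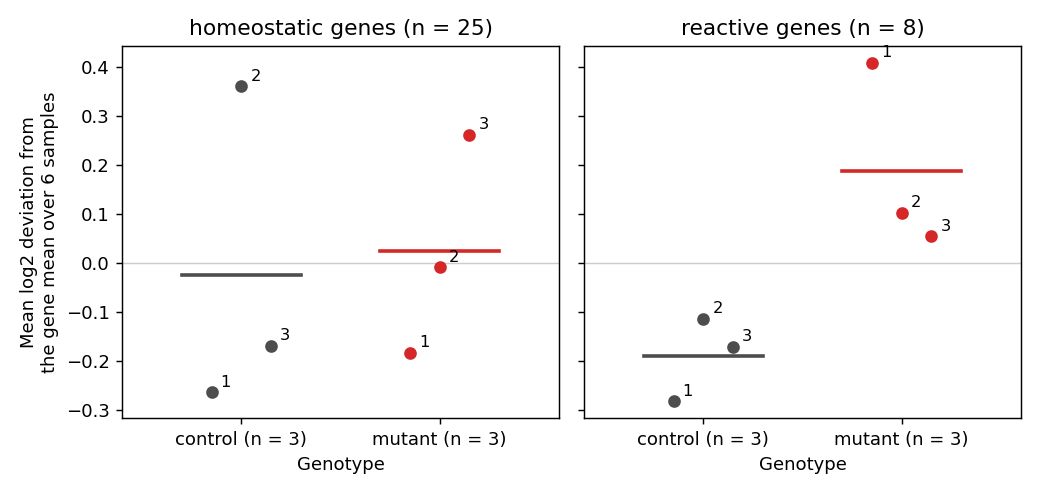
Points give, for each sample (numbered by replicate), the mean log2 deviation over the genes of a class, and bars the mean of the 3 samples of a genotype. Homeostatic genes overlap between genotypes (-0.26 to 0.36 in controls, -0.18 to 0.26 in mutants), and reactive genes lie at or below -0.11 in controls and at or above 0.055 in mutants. The reactive means include *Thbs4*, which passed the count filter only through the mutants and widened this gap.

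Leaving out control replicate 2 changed this picture for the homeostatic class. No gene of the set was called in the remaining 5 samples (0 of 33, against 46 of 15565 genes or 0.296% in all; edgeR's quasi-likelihood test, Benjamini-Hochberg adjustment). Homeostatic genes then had 23 positive log2 fold changes of 25 and a median of 0.23, and in 8 of them every mutant lay above both remaining controls. Control replicate 2 was the highest control for 24 of the 25, so leaving it out had to raise most of these fold changes. The shift is therefore not read as a difference between genotypes. Counting the reactive class as well, 13 of the 33 genes did not overlap in that direction and 0 in the opposite direction, where the shares over all genes were 12.2% and 12.1%. The 13 include *Thbs4*, which passed the count filter only through the mutants, and they are likewise not read as a difference. The reactive median, with *Thbs4* included, moved little, to 0.29. Leaving out mutant replicate 3, the highest mutant for most homeostatic genes, turned their median the other way, to -0.13, and it was also negative without control replicate 1 (-0.088) or control replicate 3 (-0.033). It was positive without mutant replicate 1 (0.14) and 0.049 without mutant replicate 2. The reactive median without mutant replicate 1 was 0.24.

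Among the genes of astrocyte identity and cytoskeleton, *Gfap* (glial fibrillary acidic protein, the intermediate filament that is scarce in many resting astrocytes and abundant in reactive ones; chr11:102748650-102762226, minus strand of the mm9 build) depended most on that sample. It lay at 57.6, 153 and 56.5 CPM in controls 1 to 3, and the mutants had 128, 85.8 and 111 CPM. Control replicates 1 and 3 were nearly equal and below every mutant, and control replicate 2 exceeded every mutant. With all samples the log2 fold change was 0.28 (SE 0.48; edgeR's quasi-likelihood test, Benjamini-Hochberg adjusted p = 0.915). Without control replicate 2 the log2 fold change was 0.92 (SE 0.16, 1.89-fold), with an adjusted p of 0.0618 in the same edgeR quasi-likelihood test with Benjamini-Hochberg adjustment, short of the threshold. That sample was the highest for *Gfap*, so leaving it out had to raise the fold change. No other gene of the set had a smaller adjusted p under any alternative run, and the log2 fold change of *Gfap* was 0.041 without control replicate 1, 0.040 without control replicate 3 and 0.14 without mutant replicate 1.

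The calcium-binding protein gene *S100b* had levels of 48.0, 78.6 and 65.9 CPM in the controls and 52.5, 67.6 and 89.4 CPM in the mutants, with mutant replicate 3 highest and control replicate 1 lowest. *Aldh1l1*, a folate enzyme used as a pan-astrocyte marker, measured 9.45, 14.3 and 7.39 CPM in controls against 7.92, 10.3 and 11.4 CPM in mutants, and every mutant fell within the range of the controls; its log2 fold change was 0.23 without control replicate 2. *Sox9*, a transcription factor of astrocytes, stood at 119, 107 and 122 CPM in the controls and 114, 146 and 137 CPM in the mutants. Here mutant replicates 2 and 3 were above all controls and mutant replicate 1 was among them, and this was the homeostatic gene in which control replicate 2 was not the highest control. Log2 fold changes of the 4 genes of this role ran from -0.074 (*Aldh1l1*) to 0.28 (*Gfap*), with adjusted p between 0.647 and 0.965 by edgeR's quasi-likelihood test (Benjamini-Hochberg).

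Genes of water, ion and gap junction transport showed no shared direction. *Aqp4*, the water channel of the end-feet, lay at 262, 389.8 and 319.7 CPM in the controls and 269.9, 239 and 334 CPM in the mutants. Mutant replicate 2 was the lowest of the 6 samples and control replicate 2 the highest, with the others interleaved, and the log2 fold change was -0.20 (SE 0.17) with and -0.047 without control replicate 2. The connexin genes *Gja1* and *Gjb6*, whose products form astrocyte gap junctions, had log2 fold changes of 0.12 (SE 0.21) and -0.17 (SE 0.43). *Gjb6* spread widely among controls, from 47.8 CPM in replicate 1 to 124 CPM in replicate 2, and its 95% confidence interval of the fold reached from 0.409 to 1.94; without control replicate 2 its log2 fold change was 0.31. *Mlc1*, a membrane protein of end-feet, the sodium pump subunit gene *Atp1b2* and the bicarbonate cotransporter gene *Slc4a4* had log2 fold changes of -0.044, -0.043 and 0.015. In this role 2 of 6 genes had positive values with all samples and 5 of 6 without control replicate 2, and the adjusted p lay between 0.791 and 0.993 with all samples (edgeR's quasi-likelihood test, Benjamini-Hochberg).

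Glutamate handling was represented by both astrocyte transporters and glutamine synthetase. *Slc1a2* (GLT-1, the main glutamate transporter of the forebrain; chr2:102498816-102630941, plus strand) had levels of 2612, 4929 and 3590.3 CPM in the controls and 2783, 3336 and 4363 CPM in the mutants. The samples of both genotypes covered nearly the same range, with control replicate 2 and mutant replicate 3 at the top and both replicates 1 at the bottom. Its log2 fold change was -0.087 (SE 0.26), and the 95% confidence interval of the fold, 0.609 to 1.46, leaves room for differences of either sign. The log2 fold change was 0.17 without control replicate 2. *Slc1a3* (GLAST) was steadier, at 652, 728 and 647 CPM in the controls and 696, 699 and 859 CPM in the mutants, and its log2 fold change was 0.15 (SE 0.10). Mutant replicate 3 was highest, and mutant replicates 1 and 2 were below control replicate 2 and above the other controls.

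*Glul*, the glutamine synthetase gene, had a log2 fold change of 0.066 with all samples and 0.28 (SE 0.099) without control replicate 2. The amino acid exchanger gene *Slc7a10*, low and sharing exon sequence with *Lrp3*, had one of -0.047. *Cbs*, the cystathionine beta-synthase of the transsulfuration pathway, measured 6.10, 11.1 and 6.03 CPM in the controls and 5.69, 12.8 and 11.9 CPM in the mutants. Its samples fell into high values (control replicate 2, mutant replicates 2 and 3) and low values (the other 3) irrespective of genotype, and its log2 fold change, the highest of the homeostatic class, was 0.39 (SE 0.35; edgeR's quasi-likelihood test, Benjamini-Hochberg adjusted p = 0.812) with all samples and 0.75 (adjusted p = 0.624) without control replicate 2.

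Of the metabolic genes, *Aldoc*, the brain aldolase, stood at 258, 340.4 and 248 CPM in the controls and 296, 321 and 345 CPM in the mutants. Control replicates 1 and 3 were below every mutant, and control replicate 2 lay near mutant replicate 3. The log2 fold change was 0.19 (SE 0.12) and became 0.34 (SE 0.094) without control replicate 2, where edgeR's quasi-likelihood test with Benjamini-Hochberg adjustment gave 0.266. For *Aldoc* the log2 fold change was 0.10 without control replicate 3 and 0.12 without control replicate 1. *Ndrg2* lay at 680.3, 1005 and 611 CPM in controls against 710.4, 743 and 841 CPM in mutants, with a log2 fold change of -0.0013 that changed sign with the test and filter used and was 0.24 without control replicate 2. The acyl-CoA synthetase gene *Acsbg1* had one of -0.12 (SE 0.19) with and 0.14 without control replicate 2, again the highest sample.

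Secreted proteins and receptors held the lowest log2 fold change of the class. *Ntsr2*, a neurotensin receptor of astrocytes (chr12:16660276-16667042, plus strand), had levels of 84.4, 149 and 108 CPM in the controls and 69.9, 80.3 and 108 CPM in the mutants. Mutant replicates 1 and 2 were below every control, while mutant replicate 3 matched control replicate 3. The log2 fold change was -0.41 (SE 0.25; edgeR's quasi-likelihood test, Benjamini-Hochberg adjusted p = 0.703) and shrank to -0.16 without control replicate 2.

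*Apoe*, the lipid carrier secreted by astrocytes and also made by microglia, measured 314, 361 and 262 CPM in the controls and 349, 352 and 373 CPM in the mutants, and *Clu* (clusterin) had 353, 457 and 395 CPM in controls against 439.9, 441 and 506 CPM in mutants. In both genes the mutants lay above control replicates 1 and 3, and control replicate 2 fell among them. Their log2 fold changes were alike, 0.20 (SE 0.11) and 0.20 (SE 0.11), and became 0.31 and 0.31 without control replicate 2. The lowest values with a sample left out were 0.086 for *Apoe* without control replicate 3 and 0.12 for *Clu* without control replicate 1. On plain CPM, without TMM scaling, *Apoe*, *Clu* and *Slc1a3* no longer overlapped between genotypes. *Agt*, angiotensinogen, stood at 41.1, 88.2 and 45.6 CPM in the controls and 49.2, 57.4 and 82.9 CPM in the mutants, and its log2 fold change was 0.11 with and 0.55 without control replicate 2. The synaptogenic protein gene *Sparcl1* (0.038), the secreted protease gene *Htra1* (-0.049) and the tissue factor gene *F3* (-0.13) had log2 fold changes smaller than their SEs, which without control replicate 2 were 0.25, 0.17 and 0.16.

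Reactive genes that encode secreted and matrix proteins were led by *Thbs4*, a thrombospondin made by reactive astrocytes (chr13:93521545-93564773, minus strand). It had 4, 10 and 5 counts in control replicates 1, 2 and 3 and 16, 15 and 15 in the mutants, or 0.268, 0.582 and 0.359 CPM against 1.32, 0.942 and 0.999 CPM. Every mutant was above every control, at levels a few times the floor of detection. The log2 fold change was 1.38 (SE 0.47, 2.61-fold), with an unadjusted p of 0.0143 and an adjusted p of 0.395 by edgeR's quasi-likelihood test with Benjamini-Hochberg adjustment. At these counts the 95% confidence interval of the fold ran from 1.27 to 5.37. The gene passed the count filter only through the mutants, and it was not tested where at least 10 counts were required in every sample. Its fold and p are therefore not read as a difference between genotypes.

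*Cp*, ceruloplasmin, the copper-binding ferroxidase (chr3:19857054-19909145, plus strand), lay at 32.0, 27.3 and 27.3 CPM in the controls and 33.9, 37.5 and 33.0 CPM in the mutants. The groups did not overlap, but control replicate 1 came close to mutant replicate 3. Its log2 fold change was 0.27 (SE 0.11; edgeR's quasi-likelihood test, unadjusted p = 0.0309, Benjamini-Hochberg adjusted p = 0.496). *Serpina3n*, a serine protease inhibitor and one of the best known reactive astrocyte genes (chr12:105644939-105652539, plus strand), had levels of 181, 217 and 175 CPM in the controls and 252, 189.7 and 241 CPM in the mutants. Mutant replicates 1 and 3 were above all controls, and mutant replicate 2 was below control replicate 2. The log2 fold change was 0.25 (SE 0.12; edgeR's quasi-likelihood test, Benjamini-Hochberg adjusted p = 0.597). The gene lies in a cluster of near relatives that may share reads, so its counts are uncertain to that extent.

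*C4b*, complement component 4 (chr17:34865325-34880827, minus strand), measured 21.7, 53.5 and 29.7 CPM in the controls and 61.0, 40.4 and 34.3 CPM in the mutants. Control replicate 2 and mutant replicate 1 were high, and the remaining mutants were above the remaining controls. The log2 fold change of 0.36 (SE 0.40) with all samples became 0.81 (SE 0.28) without control replicate 2 and 0.091 without mutant replicate 1, and a near-identical gene copy next to *C4b* makes its counts uncertain. *Timp1*, a metalloproteinase inhibitor, stood at 1.81, 1.45 and 1.36 CPM in the controls and 1.49, 0.880 and 0.933 CPM in the mutants. It was the reactive gene with a negative log2 fold change, -0.50 (SE 0.37), and mutant replicate 1 was among the controls, so that without it the log2 fold change was -0.76. *Lcn2* (lipocalin 2), which is strongly induced in acute reactive astrocytes, had 3, 3 and 3 counts in the controls and 6, 4 and 3 in the mutants. It was thus at the floor of detection in all controls and near it in the mutants, and no fold is given.

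The reactive receptors comprise the hyaluronan receptor gene *Cd44*, the sphingosine 1-phosphate receptor gene *S1pr3* and the oncostatin M receptor gene *Osmr*. *Osmr* (chr15:6763577-6824313, minus strand) lay at 6.43, 9.83 and 10.5 CPM in the controls and 13.0, 11.2 and 11.0 CPM in the mutants. The groups did not overlap, although mutant replicate 3 exceeded control replicate 3 by little, and the log2 fold change was 0.39 (SE 0.20; edgeR's quasi-likelihood test, Benjamini-Hochberg adjusted p = 0.597). Without control replicate 1, the lowest sample, it was 0.21. *Cd44* (chr2:102651298-102741822, minus strand) had levels of 57.4, 38.7 and 48.9 CPM in the controls and 73.8, 59.1 and 54.8 CPM in the mutants. Mutant replicate 1 was highest and control replicate 2 lowest, and control replicate 1 was above mutant replicate 3. Its log2 fold change was 0.37 (SE 0.16), with an unadjusted p of 0.0443 and an adjusted p of 0.551 in edgeR's quasi-likelihood test with Benjamini-Hochberg adjustment, and 0.23 without control replicate 2. *S1pr3* measured 26.3, 14.8 and 31.1 CPM in controls against 28.0, 31.9 and 25.2 CPM in mutants, so that its log2 fold change of 0.24 rested on the low value of control replicate 2 and was -0.016 without it.

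**Figure D3:**
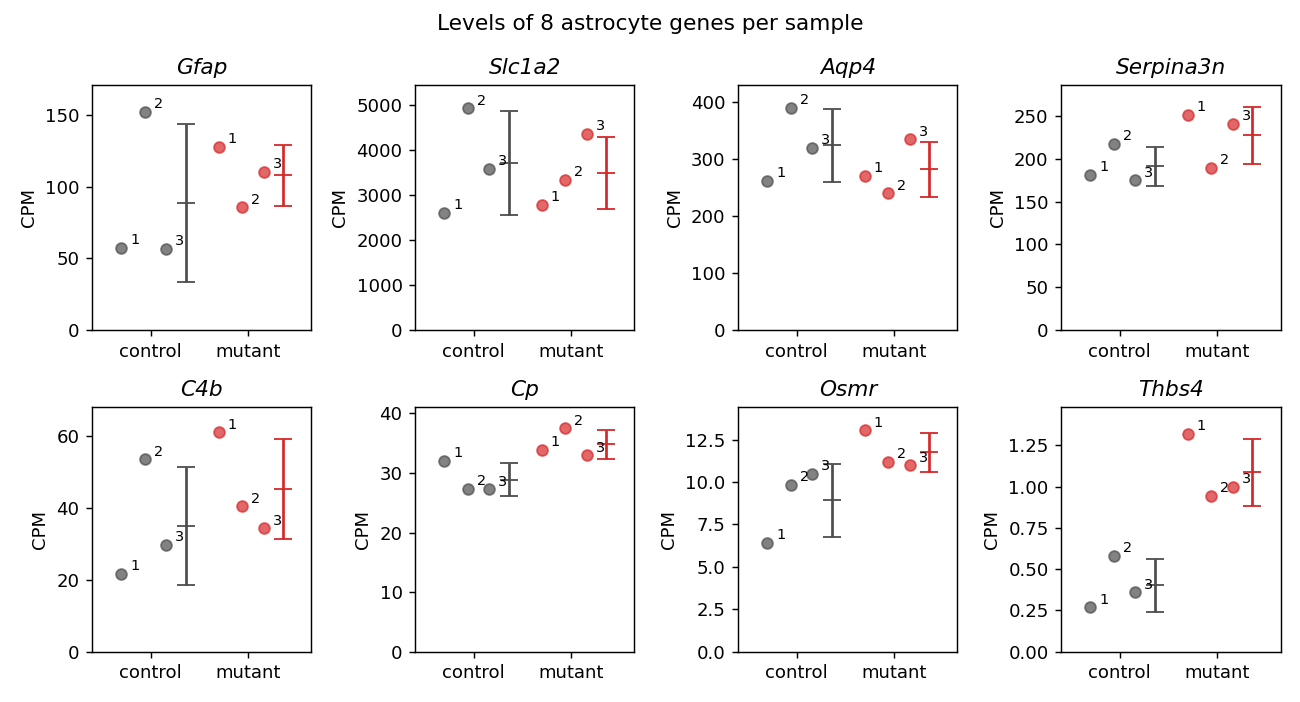
CPM after TMM scaling of 8 astrocyte genes in each sample (points, numbered by replicate), with the mean ± SD of the 3 samples of a genotype beside them. *Gfap* and *C4b* are high in control replicate 2 (153 and 53.5 CPM), and the mutants lie above all controls for *Cp*, *Osmr* and *Thbs4*.

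Further genes of the same programmes were measured beside the set; 4.84% of all genes were higher and 4.01% lower at an unadjusted p under 0.05, and the groups did not overlap for 7.88% each way. Of 36 further homeostatic astrocyte genes, all tested, 0 were called by edgeR's quasi-likelihood test (Benjamini-Hochberg) and 1 by DESeq2, 2 were higher and 0 lower at an unadjusted p under 0.05, 4 were higher and 0 lower without overlap, and the median log2 fold change was 0.054. *Cldn10*, a claudin of astrocytes (chr14:119187093-119274711, plus strand), stood at 35.6, 24.5 and 29.6 CPM in the controls and 54.0, 41.3 and 47.9 CPM in the mutants. Every mutant exceeded every control, and the log2 fold change was 0.68 (SE 0.15) with an adjusted p of 0.157 in edgeR's quasi-likelihood test and 0.00742 in DESeq2, both by Benjamini-Hochberg. With the replicate block, edgeR's quasi-likelihood test called it (Benjamini-Hochberg adjusted p = 0.0152), along with 123 of 15236 genes in all. *Nfia*, a transcription factor of gliogenesis, had a log2 fold change of 0.27 (SE 0.11). The most abundant genes of that list, the neurotrophin receptor gene *Ntrk2* and *Ttyh1*, had values of -0.12 and 0.0049, and of -0.086 and 0.13 without control replicate 2. The list's median was then 0.16.

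Of 8 further genes common to reactive astrocytes, 7 had positive log2 fold changes, and the remaining 1 was at -0.85. The median of the 8 was 0.42, and 0.20 without control replicate 2. By edgeR's quasi-likelihood test or DESeq2 0 were called, with 1 higher at an unadjusted p under 0.05 and 2 higher without overlap. *Vim*, the vimentin intermediate filament that partners with GFAP and is also strong in tanycytes, lay at 129.5, 120.4 and 126 CPM in the controls and 144, 152 and 147 CPM in the mutants. The groups did not overlap, and the log2 fold change was 0.24 (SE 0.074; edgeR's quasi-likelihood test, unadjusted p = 0.00940, Benjamini-Hochberg adjusted p = 0.352). *Socs3*, the feedback inhibitor of STAT3 signaling, had levels of 3.62, 2.21 and 3.51 CPM in controls against 3.96, 4.52 and 4.66 CPM in mutants, also without overlap, and *Nes* (nestin) had a log2 fold change of 0.33 (SE 0.31). Without control replicate 2 these values were 0.30 for *Socs3* (from 0.50) and 0.11 for *Nes*.

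Among 11 tested genes of the reactive state linked to inflammation (called A1), 0 were called by edgeR's quasi-likelihood test (*Gbp2* by DESeq2, which called 1.31% of all genes, and *H2-D1* by edgeR with the replicate block), 3 were higher at an unadjusted p under 0.05 (4.84% of all genes), and 5 were higher and 1 lower without overlap (7.88% of all genes each way). The median log2 fold change was 0.65 (from -0.28 to 2.92, with 3 of the 11 negative) and became 0.35 without mutant replicate 1. The interferon-induced GTPase gene *Gbp2* measured 6.10, 5.41 and 6.24 CPM in the controls and 22.0, 10.1 and 8.39 CPM in the mutants, and its log2 fold change was 1.18 with and 0.64 without mutant replicate 1. The immunoproteasome gene *Psmb8* gave 1.09 and 0.58, and *H2-D1*, of the class I histocompatibility family, whose members may share reads, gave 0.75 and 0.35. *Amigo2*, abundant in this list, had a log2 fold change of -0.050. Of the genes linked to the ischemic state (called A2), 6 of 11 had enough counts to be tested, 0 were called by edgeR's quasi-likelihood test or DESeq2, 0 had an unadjusted p under 0.05, and the median was 0.20, with *Tm4sf1* at 0.58, *S100a10* at 0.27 and *Emp1* at 0.10. Without control replicate 2, *Tm4sf1* was at 0.28 and *S100a10* at 0.35, with every mutant above both remaining controls for *S100a10*. *Emp1* reversed to -0.31, with every mutant below both remaining controls.

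Signals and receptors that act on astrocyte reactivity had small positive log2 fold changes in most cases. Leaving *Esr1* aside, 31 of 39 such genes were tested, 0 were called by edgeR's quasi-likelihood test (4 by DESeq2, *Cish*, *Socs2*, *Tgfb2* and *Pgr*, against 1.31% of all genes), and 3 were higher and 1 lower at an unadjusted p under 0.05. With the replicate block, edgeR's quasi-likelihood test called *C3*, *Cish*, *Pgr*, *Socs2* and *Tgfb2*, against 123 of 15236 genes in all. Without overlap 8 were higher and 1 lower (7.88% of all genes each way), 27 had positive log2 fold changes, and the median was 0.17. *Il6st* (gp130), the shared receptor subunit through which OSMR signals, and the kinase gene *Jak1* had log2 fold changes of 0.057 (SE 0.080) and -0.045 (SE 0.087). *Stat3*, singled out after its values were seen, gave 0.011 (SE 0.11), and the cytokine gene *Il6* had under 3 counts in every sample. *Cish*, a STAT5 target and feedback inhibitor, stood at 5.03, 5.47 and 7.24 CPM in the controls and 14.1, 12.2 and 12.2 CPM in the mutants. All mutants exceeded all controls, with a log2 fold change of 1.12 (SE 0.18) and an adjusted p of 0.0567 by edgeR's quasi-likelihood test (Benjamini-Hochberg) and 0.000187 by DESeq2. *Pgr*, the progesterone receptor gene and a classical estrogen target, lay lower in every mutant, with a log2 fold change of -0.64 (SE 0.10) and adjusted p of 0.0567 by the same edgeR test and 5.74e-05 by DESeq2.

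Markers of other glial cells were measured beside the astrocyte genes. All 8 oligodendrocyte markers used were higher in every mutant than in every control, which held for 7.88% of all genes. Their summed level was 431, 648 and 345 CPM in the controls and 868, 877 and 847 CPM in the mutants. The myelin claudin gene *Cldn11* passed the threshold among them, as did 0.118% of all genes, at 7.91, 11.0 and 7.39 CPM against 18.8, 22.2 and 22.6 CPM (log2 fold change 1.27, SE 0.17; edgeR's quasi-likelihood test, Benjamini-Hochberg adjusted p = 0.0313). Of the 8, 4 were called by DESeq2 (1.31% of all genes), and edgeR's quasi-likelihood test called 6 without control replicate 2 (0.296% of all genes). Of the 8 microglia markers used, 4 were higher in every mutant (7.88% of all genes) and 4 were higher at an unadjusted p under 0.05 (4.84%), 0 were called by edgeR's quasi-likelihood test and 2 by DESeq2, and the sum was 217, 228 and 201 CPM in the controls and 309, 282 and 298 CPM in the mutants. *C4b*, *Serpina3n*, *Cd44* and *Apoe* are known to be expressed in such cells too. The part of these cells in the astrocyte results was not tested.

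Tanycytes, the radial glia of the ventricle wall, express *Vim*, *Nes* and several astrocyte genes. Of their 10 markers 8 had positive log2 fold changes, and 2 were higher at an unadjusted p under 0.05 (4.84% of all genes). By edgeR's quasi-likelihood test 0 were called, and *Dio2* was higher without overlap (7.88% of all genes). The median log2 fold change of the 10 markers was 0.30 with and 0.089 without control replicate 2. Summed levels of ependymal markers (8, led by *Hydin*) were 86.0, 119 and 169 CPM in the controls and 99.2, 132 and 153 CPM in the mutants, and those of ventromedial neurons (6, led by *Adcyap1*) were 95.2, 209.8 and 151 against 112, 258 and 319.9 CPM, with both replicates 1 lowest as for many homeostatic genes. Neuronal markers (7, led by *Snap25*) summed to 3485, 4471 and 4386 CPM in the controls and 3805, 5258 and 4809 CPM in the mutants, ARC markers (12, led by *Cartpt*) to 1185, 1190.2 and 1130.3 against 1861, 1286 and 1390.4 CPM, and oligodendrocyte precursor markers (5, led by *Pdgfra*) to 224, 259.9 and 196 against 233, 252 and 279 CPM. The sums of vessel markers were lowest in control replicate 2. They were 135, 100.2 and 135 against 139, 122 and 144 CPM for endothelial (7, led by *Flt1*) and 159, 94.8 and 118 against 123, 136 and 137 CPM for mural cells (6, led by *Rgs5*). Single markers differed, and endothelial *Ly6c1* was higher there than in control replicates 1 and 3 (6.52 against 5.43 and 4.73 CPM). Meningeal fibroblast markers (6, led by *Dcn*) summed to 436, 267 and 433 against 279, 581 and 355 CPM and pituitary markers (6, led by *Cga*) to 747, 5.99 and 496 against 579, 518 and 460.4 CPM. Of these lists other than the oligodendrocyte markers 0 genes were called by edgeR's quasi-likelihood test. DESeq2, which called 1.31% of all genes, called *Dio2* and 5 of the ARC markers besides the 2 microglia markers. The part of these cells in the spread of astrocyte genes was not tested.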

How the data were processed

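RNA from the dissected ARC of 6 females (50 ng per sample per the labels) was amplified by the authors with the Nugen Ovation RNA-Seq System V2, and the paper names the Ovation Ultralow System V2 for the libraries. The values are read counts per gene symbol deposited by the authors, made with TopHat2 2.1.0 and HTSeq 0.6 according to the submitters' processing notes; these name the build mm9 (the paper writes NCBI37/mm10), and the strand setting of the counting is not given in the sources used here.

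Counts were compared in R 4.3.3 with edgeR 4.0.16 (TMM, filterByExpr, glmQLFit with robust dispersions, glmQLFTest), without covariates, and p-values were adjusted by Benjamini-Hochberg over 15236 genes with a threshold of 0.05. SE is the absolute log2 fold change divided by the square root of F. Groups come from the genotype labels. Coordinates and exon lengths are from GENCODE vM1 on mm9, where all 34 genes had a single match. The code was tested on simulated counts.

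The genes, gene lists and marker lists were chosen with earlier results of these data known. All 34 genes are described; from each related list the genes past the threshold are named, or else the 2 with the smallest p and the 2 with the highest mean CPM (*Esr1* left aside), and from most marker lists the most abundant gene. From the oligodendrocyte and microglia lists, 1 marker each is not reported here, and sums and counts leave it out. *Cldn11*, *Iigp1*, *Stat3*, *Il6*, *C3*, *Socs2* and *Tgfb2* were named after their values were seen. Alternatives were RLE scaling, plain CPM, DESeq2 1.42.0, limma 3.58.1 voom, other filters on low counts, a replicate block and leaving out each sample.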

Additional observations from a re-analysis of the deposited data

How the results depend on the processing

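The count of astrocyte genes called was 0 under every alternative test, filter, scaling and left-out sample (plain CPM served only to compare overlap), and the smallest adjusted p in any of them was 0.0618 (*Gfap*, without control replicate 2; edgeR's quasi-likelihood test, Benjamini-Hochberg). *Esr1* was called lower in the same runs. Over all genes, 18 were called (9 higher, 9 lower), against 200 with DESeq2 (106 higher, 94 lower), 106 when every gene with at least 1 count was kept (49 higher, 57 lower) and 7 to 46 with a sample left out (2 to 26 higher, 5 to 20 lower). Related genes called numbered 0, against 6 with DESeq2, 4 when genes with any count in any sample were kept (*Cish*, *Cldn10*, *Pgr* and *Socs2*), and 0 to 1 with a sample left out (*Socs2*, without control replicate 3). Astrocyte genes not overlapping numbered 3, against 6 on plain CPM and 3 to 13 with a sample left out, where the shares over all genes in either direction were 15.8% with all samples, 14.8% on plain CPM and 22.5 to 27.6% with a sample left out. The 13 came without control replicate 2, where the share was 24.3%, and they include *Thbs4*, which passed the count filter only through the mutants. The causes of these differences were not tested.

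The median log2 fold change of the homeostatic class ran from -0.13 to 0.23 with a sample left out (lowest without mutant replicate 3, highest without control replicate 2), and that of the reactive class from 0.24 to 0.39, so only the reactive median kept its sign. These runs share most of their samples, and the reactive medians include *Thbs4*, which passed the count filter only through the mutants. The kept sign is therefore not read as a difference between genotypes. *Ndrg2* (-0.0013) reversed to 0.029 with limma voom and 0.0041 with at least 10 counts in every sample. With a sample left out, log2 fold changes that changed sign ran from -0.096 to 0.30 (*S100b*), -0.27 to 0.23 (*Aldh1l1*), -0.15 to 0.055 (*Mlc1*), -0.060 to 0.28 (*Gja1*), -0.43 to 0.31 (*Gjb6*), -0.22 to 0.094 (*Atp1b2*), -0.19 to 0.22 (*Slc4a4*), -0.29 to 0.17 (*Slc1a2*), -0.038 to 0.28 (*Glul*), -0.33 to 0.14 (*Slc7a10*), -0.26 to 0.14 (*Acsbg1*), -0.14 to 0.24 (*Ndrg2*), -0.13 to 0.55 (*Agt*), -0.15 to 0.25 (*Sparcl1*), -0.21 to 0.17 (*Htra1*), -0.33 to 0.16 (*F3*) and -0.016 to 0.46 (*S1pr3*). The cause was not tested, and all but *S1pr3* are homeostatic genes. Those that kept their sign but moved by over 1.5 times ran from 0.040 to 0.92 (*Gfap*), 0.11 to 0.29 (*Sox9*), -0.35 to -0.047 (*Aqp4*), 0.046 to 0.21 (*Slc1a3*), 0.19 to 0.75 (*Cbs*), 0.10 to 0.34 (*Aldoc*), 0.086 to 0.31 (*Apoe*), 0.12 to 0.31 (*Clu*), -0.60 to -0.16 (*Ntsr2*), 0.091 to 0.81 (*C4b*), -0.76 to -0.36 (*Timp1*), 0.23 to 0.51 (*Cd44*) and 0.21 to 0.52 (*Osmr*).

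The labels do not say what the replicate numbers mark, and samples were not treated as pairs; deviations of same-numbered samples correlated at 0.313, 0.0487 and 0.0189 over 15236 genes. With the replicate block, 123 genes were called (69 higher, 54 lower) and 7 related genes (*C3*, *Cish*, *Cldn10*, *H2-D1*, *Pgr*, *Socs2* and *Tgfb2*), but again 0 astrocyte genes; *Ndrg2* was at 0.029.

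Depth limits *Thbs4*, *Timp1* and *Lcn2*, which had few counts. A p over the threshold does not show that the genotypes were equal.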
